A study of Rattus norvegicus with 20 samples.

Results

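The interferon response genes described here are Stat2, Irf9, Irf1, Irf7, Isg15, Mx1, Mx2, Ifit2, and Ifit3. They were taken by gene name from the table of gene counts, where all 9 were found among 39747 genes. RNA came from dorsal root ganglia (DRG), which hold the cell bodies of sensory neurons, of 14 female Sprague-Dawley rats. The rats were 8 to 10 weeks old when the study began, before the diets, and older at collection. In chronic constriction injury (CCI), the left sciatic nerve was loosely tied with 4 chromic gut ligatures, and in sham surgery (CT) it was exposed and received 0 ligatures. The diet, begun 4 weeks before surgery, was based either on soy oil (SOD, the control) or on fish oil (FOD). Collection of the DRG is placed 1 week after surgery by the study, whereas the public description has feeding continue for 4 weeks after it, so the total feeding time is uncertain.

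The 20 libraries formed 6 groups. On SOD there were left DRG of 4 sham (SOD-CT) and 3 injured (SOD-CCI) rats, and on FOD of 3 sham (FOD-CT) and 4 injured (FOD-CCI) rats. Right DRG, contralateral to the injury, were taken from 6 of the 7 injured rats, 3 on each diet, and right DRG of sham rats were not analysed here. Library totals ran from 22547190 to 54437581 counts.

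Type I interferons signal through receptors that activate Jak kinases, and a complex that holds Stat2 and Irf9 then binds the interferon-stimulated response element (ISRE) in the promoters of its targets. Interferon gamma acts through another element, the gamma-activated sequence (GAS). Irf1 and Irf7 are transcription factors that are themselves induced and extend the response, and Isg15, the Mx GTPases, and the Ifit proteins are among its antiviral products. In peripheral nerve and DRG, macrophages and other immune cells that gather after injury also express many of these genes.

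Promoter windows of 300 bases (250 before and 50 after the annotated start, RefSeq, build GRCr8) were found for 6 of the genes, namely Stat2, Irf9, Irf1, Irf7, Mx1, and Ifit3. They were searched on both strands for an ISRE core, GAAANNGAAA, and for the GAS letters TTCNNNGAA, which read the same on both strands. The 4 windows that hold a match are shown because they place the signalling molecules and their targets in the same sequence terms, with the match in capitals.

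Irf7 (chr1:205799974-205800273, minus strand): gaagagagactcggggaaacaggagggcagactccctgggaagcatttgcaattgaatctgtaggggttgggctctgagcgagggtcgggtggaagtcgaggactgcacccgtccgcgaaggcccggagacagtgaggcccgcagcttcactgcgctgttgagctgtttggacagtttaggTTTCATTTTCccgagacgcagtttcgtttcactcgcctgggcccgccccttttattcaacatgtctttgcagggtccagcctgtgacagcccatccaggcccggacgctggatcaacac
Ifit3 (chr1:241527076-241527375, plus strand): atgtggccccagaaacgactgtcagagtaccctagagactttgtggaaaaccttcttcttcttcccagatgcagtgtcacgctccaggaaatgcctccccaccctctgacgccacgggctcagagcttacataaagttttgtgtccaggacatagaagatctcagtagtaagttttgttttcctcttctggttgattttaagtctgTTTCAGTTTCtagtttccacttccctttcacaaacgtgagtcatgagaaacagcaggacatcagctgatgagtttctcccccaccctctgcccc
Irf1 (chr10:38417685-38417984, plus strand): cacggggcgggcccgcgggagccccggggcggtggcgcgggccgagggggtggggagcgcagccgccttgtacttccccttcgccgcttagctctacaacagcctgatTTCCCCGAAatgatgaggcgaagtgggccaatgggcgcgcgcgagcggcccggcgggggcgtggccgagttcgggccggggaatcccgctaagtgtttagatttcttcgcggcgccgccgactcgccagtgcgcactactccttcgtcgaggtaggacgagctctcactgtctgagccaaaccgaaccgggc
Irf9 (chr15:33065586-33065885, plus strand): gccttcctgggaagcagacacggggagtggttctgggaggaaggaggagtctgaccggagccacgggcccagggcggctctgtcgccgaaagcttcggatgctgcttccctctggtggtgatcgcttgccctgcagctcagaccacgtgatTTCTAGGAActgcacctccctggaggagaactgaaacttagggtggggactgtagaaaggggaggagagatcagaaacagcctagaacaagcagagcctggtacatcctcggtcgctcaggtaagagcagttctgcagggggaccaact

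The ISRE core appears in its reverse complement in Irf7, beginning 69 bases before the start, and in Ifit3, beginning 44 bases before it. The GAS letters begin 142 bases before the start of Irf1 and 99 bases before that of Irf9. The Stat2 and Mx1 windows held neither, which says only that these letters are not in these windows. Of 33469 promoter windows of this length, 1312 (3.92%) held the ISRE core and 2970 (8.87%) the GAS letters. Among 79 windows of other interferon pathway genes, 40 (50.6%) held the ISRE core and 18 (22.8%) the GAS letters. These matches are descriptions of sequence and not of binding, which was not measured.

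Levels between genes can be compared only per length, as FPKM, which scales fragments by gene length and library depth. By median FPKM over the 20 libraries, Mx2 was highest at 19.3, followed by Stat2 at 15.0, Irf9 at 14.2, Irf7 at 8.44, Isg15 at 7.12, Mx1 at 5.95, Irf1 at 5.06, Ifit2 at 3.06, and Ifit3 at 1.27. Mx2 exceeded Stat2 in 19 of 20 libraries, Irf9 exceeded Irf7 in 17, Irf1 exceeded Ifit2 in 17, and Ifit2 exceeded Ifit3 in 18. The other neighbours could not be ordered beyond the spread between libraries: Stat2 was above Irf9 in 13 libraries, Irf7 above Isg15 in 10, Isg15 above Mx1 in 13, and Mx1 above Irf1 in 12. Of the genes, 8 had at least 10 counts in all 20 libraries, whereas Ifit3 did in 18. The row named Mx2 (gene 286918) carries a description as Mx3 in the count table, and RefSeq lists Mx3 as its synonym. Reads shared between near-identical Mx copies, or between Ifit paralogs, may have been divided unevenly in counting.

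Within a gene, libraries were compared as CPM, the counts scaled to a common library total, adjusted with TMM (trimmed mean of M values) factors. The factor was 0.65 in SOD-CT replicate 1 and 0.94 to 1.13 in the other libraries. Some libraries held transcripts of other tissues. The summed level of 7 skeletal muscle genes was 119400 CPM in SOD-CT replicate 1, and that of 7 spinal cord glia genes was 3119 CPM in replicate 1 of FOD-CT, 1812 CPM in replicate 1 of FOD-CCI, and 3635 CPM in the right DRG of that FOD-CCI rat, against 17.0 to 116 CPM in the other 17 libraries. Muscle sums were 5.09 to 19140 CPM in the other 19. The sum of 10 neuron markers ranged from 4387 CPM, in that same right DRG, to 35390 CPM, so neuronal transcripts were present in every library. Among these markers, Isl1 was at 0 in 1 library and Avil ranged from 4.68 to 714.5 CPM. The sum does not show how much of each library came from DRG. In bulk tissue, fewer cells of a type and less RNA per cell cannot be told apart. The plot of CPM by group shows all 9 genes.

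**Figure D1:**
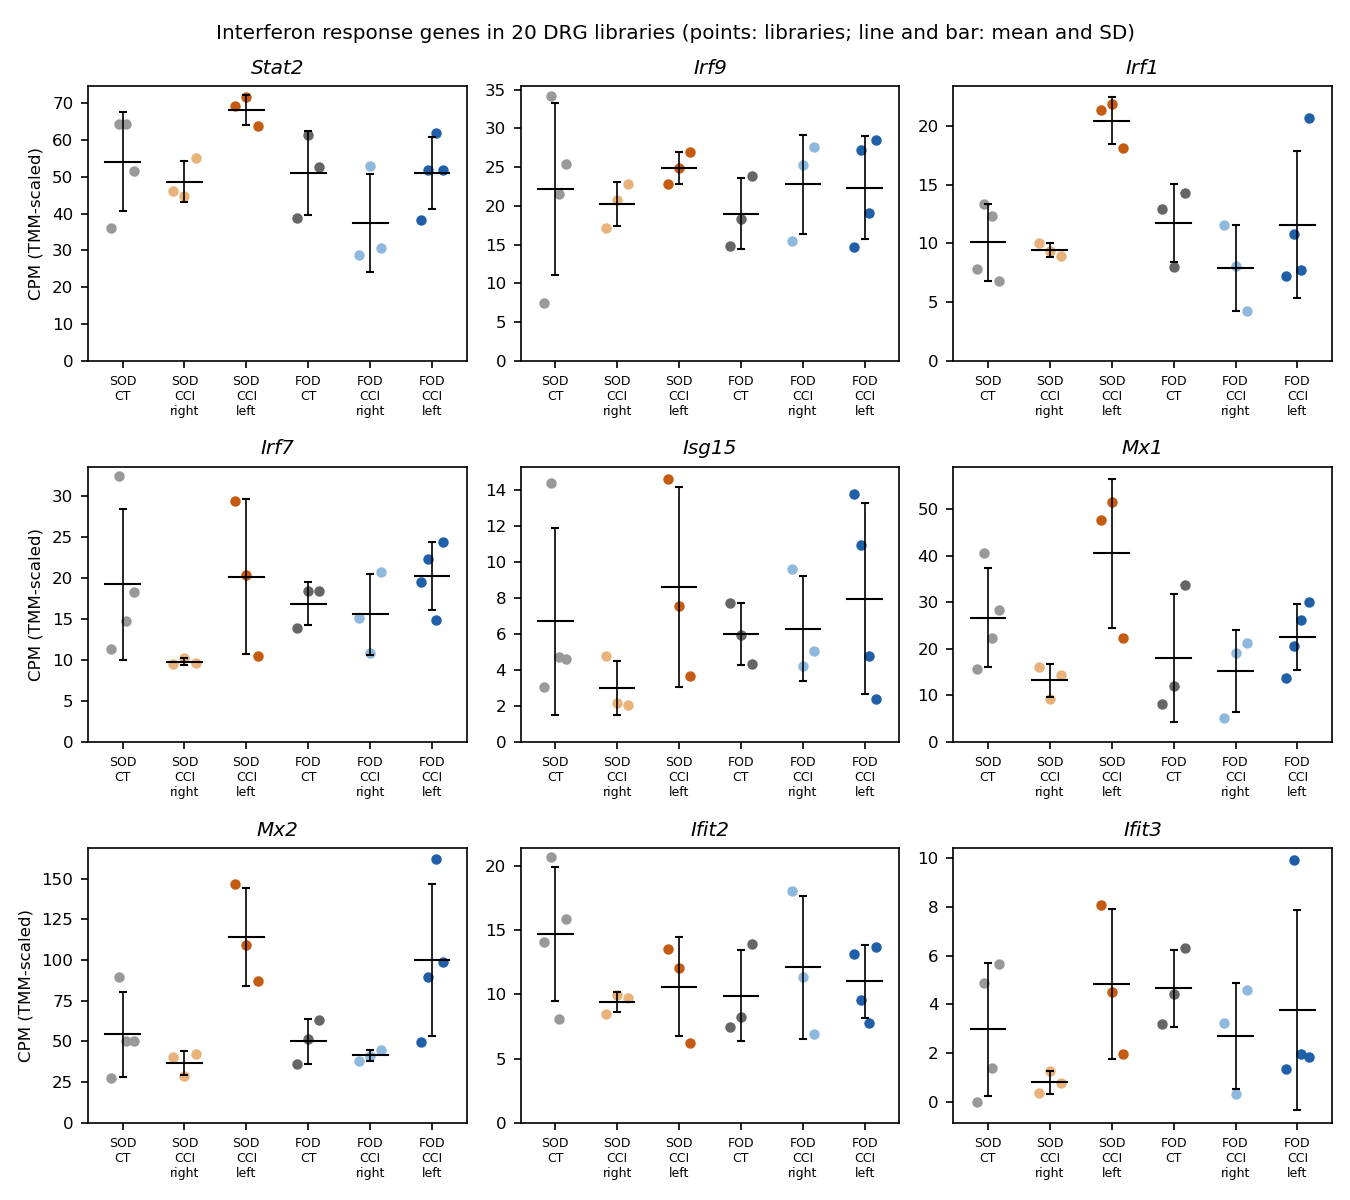
TMM-scaled CPM of the 9 genes (vertical axes, separate scales) in the 20 libraries by group (horizontal axes); points are libraries, and horizontal lines with bars are means with SD. Mx2 lies between 87.2 and 146.5 CPM in left DRG of SOD-CCI rats and between 28.5 and 41.98 CPM in their right DRG.

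The injured side was first compared with the contralateral side of the same rats, which shows how far the ganglion of the ligated nerve differs from its uninjured counterpart on each diet. On SOD, all 9 genes were higher in left DRG, with a median log2 fold change (log2FC) of 1.13 against 0.02 over all 14549 genes tested. By unadjusted p, Mx2, Mx1, Irf1, Isg15, and Irf7 came first. The log2FC was largest for Ifit3, whose interval was the widest, and closest to 0 for Irf9 and Ifit2. A gene was called when its Benjamini-Hochberg adjusted p over all genes reached 0.1 or less and its fold change 1.2 or more (edgeR quasi-likelihood test). None of the 9 was called, and 19 genes, 0.131%, were called in all. At an unadjusted p under 0.05, 5 of the 9 were higher, against 5.34% of all genes. Of the 9, 8 were higher in each of the 3 rats, against 20.4% of all genes. The 9 genes are targets and parts of the same response and do not vary independently.

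Mx2 was at 146.5, 109.2, and 87.2 CPM in left DRG of SOD-CCI rats 1, 2, and 3 and at 40.2, 28.5, and 41.98 CPM in their right DRG. Left and right values did not overlap, and the gap was smallest in rat 3. The log2FC was 1.64 (SE 0.30, 95% interval 0.97 to 2.32, edgeR adjusted p = 0.142), a 3.13-fold difference. Mx1, whose product blocks RNA viruses in the nucleus in rodents, was at 47.8, 51.5, and 22.2 CPM on the left and at 16.0, 9.24, and 14.2 CPM on the right. Its log2FC was 1.58 (SE 0.39, edgeR adjusted p = 0.255), and the smallest ratio was again that of rat 3.

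Isg15, a ubiquitin-like protein that is attached to other proteins, was at 14.6, 7.52, and 3.66 CPM on the left and at 4.75, 2.16, and 2.07 CPM on the right. The left DRG of rat 3 was thus lower than the right DRG of rat 1, but each rat was higher on its injured side. The log2FC was 1.44 (SE 0.44, edgeR adjusted p = 0.362). Irf1 was at 21.4, 21.9, and 18.2 CPM on the left and at 10.1, 9.34, and 8.93 CPM on the right. Left and right values did not overlap, the log2 ratios in the rats were 1.08, 1.23, and 1.02, and the log2FC was 1.13 (SE 0.34, edgeR adjusted p = 0.362).

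Irf7, the main amplifier of type I interferon production, was at 29.4, 20.4, and 10.5 CPM on the left and at 9.46, 10.2, and 9.64 CPM on the right. Rat 3 hardly differed between sides. The log2FC was 0.94 (SE 0.38, edgeR adjusted p = 0.534). Ifit3, which together with other Ifit proteins binds viral RNA, was at 8.07, 4.51, and 1.96 CPM on the left and at 0.37, 1.28, and 0.78 CPM on the right. Its log2FC of 2.46 was the largest of the 9 but had an SE of 1.21 (interval −0.29 to 5.21, edgeR adjusted p = 0.637), and its counts were the lowest.

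Stat2, which carries the signal from the type I receptor to the nucleus, was at 69.1, 71.8, and 63.8 CPM on the left and at 46.1, 44.8, and 55.1 CPM on the right (log2FC 0.51, SE 0.23, edgeR adjusted p = 0.592). Irf9, the DNA-binding part of the complex, was at 22.8, 24.9, and 26.9 CPM on the left and at 17.2, 20.8, and 22.8 CPM on the right (log2FC 0.33, SE 0.22, edgeR adjusted p = 0.774). Both signalling components differed less than most of their targets, although the difference between genes was not tested. Ifit2 was at 13.5, 12.1, and 6.23 CPM on the left and at 8.50, 9.98, and 9.68 CPM on the right (log2FC 0.13, SE 0.35, edgeR adjusted p = 0.959), and was lower on the injured side of rat 3.

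**Figure D2:**
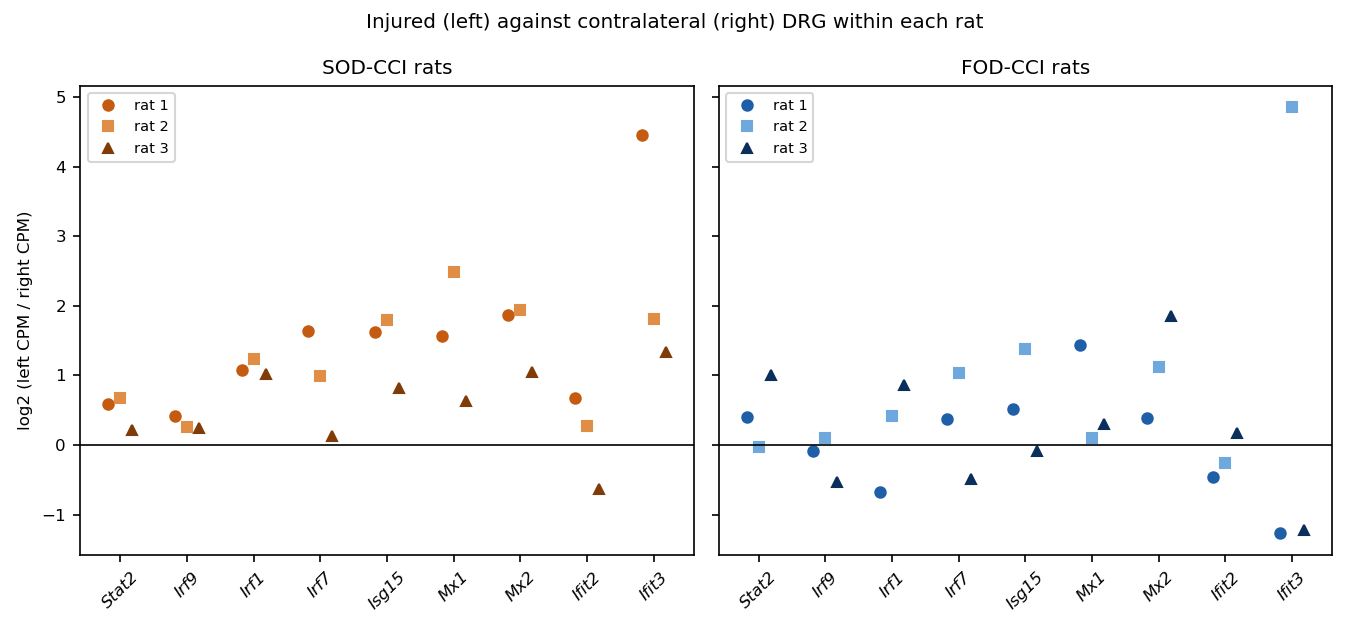
Log2 ratio of left to right CPM (vertical axis) for each of the 9 genes (horizontal axis) in the 3 SOD-CCI rats and the 3 FOD-CCI rats with both sides; each symbol is a rat and the line marks no difference. On SOD all points but that of Ifit2 in rat 3 lie above 0, and on FOD only Mx2 and Mx1 do so in every rat.

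The calls on SOD depended on the fit. The DESeq2 Wald test called 3 of the 9 (Mx2, adjusted p = 3.36e-05; Mx1, 0.00615; Isg15, 0.0784), when 3.24% of all genes were called. Without both DRG of FOD-CCI replicate 1, which hold spinal cord transcripts and enter through the shared estimate of the spread, edgeR called 3 (Mx2, adjusted p = 0.0093; Mx1, 0.0436; Irf1, 0.0658), when 3.14% of all genes were called. It called Mx2 alone without both DRG of FOD-CCI replicate 3 (adjusted p = 0.0765), when 0.371% of all genes were called, and Mx2 (0.00606) and Mx1 (0.0585) with no filter on low counts, when 0.801% were. With SOD-CCI replicate 2 left out, 2 of the 9 had an unadjusted p under 0.05 in place of 5, and without SOD-CCI replicate 1 there were 3. Over the 12 alternatives, between 8 and 9 genes were higher on the left.

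Macrophage markers moved with these genes. All 9 macrophage markers tested, of 10 listed, were higher in left DRG of SOD-CCI rats, with a median log2FC of 2.17 and 8 at an unadjusted p under 0.05. The summed level of the 10 was 176.2, 268.3, and 219.3 CPM on the left and 29.9, 58.4, and 77.7 CPM on the right. Of the 10, Csf1r, Aif1, Mrc1, Adgre1, and C1qa were detected in all 20 libraries, and the other 5 were at 0 in 1 or 2 libraries. Of 6 T cell markers, Cd4, which rat macrophages also express, was the 1 that passed the filter (log2FC 2.39), and Cd3e was at 0 in 14 libraries and Cd3d in 13. Further, 4 pan-leukocyte markers had a median of 0.68, and 5 of 5 fibroblast markers were higher with a median of 0.77. Of 4 neutrophil markers 1 was higher, with a median of −0.21. The part of these cells in the difference was not tested.

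On FOD, the same comparison gave 7 of 9 genes higher in left DRG, with a median log2FC of 0.32 against 0.04 over all genes. None was called, when 2 genes, 0.0137%, were called in all. Mx2 was the one gene of the 9 at an unadjusted p under 0.05, against 4.3% of all genes. It was at 49.7, 89.7, and 162.2 CPM in left DRG of FOD-CCI rats 1, 2, and 3 and at 37.8, 41.3, and 45 CPM in their right DRG. Every left value lay above every right value, and the lowest was that of rat 1. The log2FC was 1.13 (SE 0.30, interval 0.45 to 1.81, edgeR adjusted p = 0.522), a 2.19-fold difference. The DESeq2 Wald test called it (adjusted p = 0.025) along with 1.81% of all genes, and edgeR did so without both DRG of FOD-CCI replicate 1 (log2FC 1.5, adjusted p = 0.078) along with 0.914%. Without both DRG of FOD-CCI replicate 3 its log2FC was 0.76.

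Of the 9 genes, Mx2 and Mx1 were higher in each of the 3 FOD-CCI rats, against 12.1% of all genes. Mx1 was at 13.7, 20.5, and 26.2 CPM on the left and at 5.05, 19.1, and 21.3 CPM on the right (log2FC 0.60, SE 0.38, edgeR adjusted p = 0.783). The log2 ratio was 1.44 in rat 1, 0.10 in rat 2, and 0.30 in rat 3. Isg15 was at 13.8, 10.95, and 4.75 CPM on the left and at 9.61, 4.19, and 5.03 CPM on the right (log2FC 0.61, SE 0.43, adjusted p = 0.800 by edgeR), so that rat 3 was slightly lower on the injured side.

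Irf1 was at 7.25, 10.8, and 7.70 CPM on the left and at 11.6, 8.04, and 4.22 CPM on the right, and rat 1 went the opposite way to the other two (log2FC 0.22, SE 0.35). Stat2 had a log2FC of 0.47 (SE 0.23), which is close to its value on SOD, and it had an unadjusted p under 0.05 without FOD-CCI replicate 2. The remaining genes were Irf7 (0.32, SE 0.38), Ifit3 (0.22, SE 1.39), Irf9 (−0.16, SE 0.22), and Ifit2 (−0.17, SE 0.34). Ifit3 was at 9.89 CPM against 0.34 CPM in rat 2 and lower on the injured side in rats 1 and 3.

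Of 9 macrophage markers, 7 were higher on the injured side on FOD, with a median log2FC of 0.46 and 1 at an unadjusted p under 0.05. Their sum was 166.9, 332.8, and 304.7 CPM on the left and 314.0, 131.5, and 221.4 CPM on the right. Fibroblast markers went the opposite way to SOD, with 0 of 5 higher on the injured side, a median log2FC of −1.01, and 4 lower at an unadjusted p under 0.05. The right DRG of FOD-CCI rats held higher macrophage sums than those of SOD-CCI rats in all 3 libraries, and in rat 1 the right exceeded the left. Both DRG of rat 1 also held spinal cord glia transcripts, at 1812 CPM on the left and 3635 CPM on the right. Its macrophage sums therefore do not show how much came from the ganglion. What part these markers had in the differences of the interferon genes was not tested.

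Whether the left-to-right change differed by diet was tested as an interaction within rats. The signed log2FC of all 9 genes was lower on FOD, with a median difference of −0.63 against 0.03 over all genes. For Irf9 and Ifit2 the sign also differed between diets. None was called (0% of all genes), 0 had an unadjusted p under 0.05 and were lower, against 2.11% of all genes, and edgeR gave each an adjusted p of 0.997. The difference was −0.98 (interval −2.21 to 0.25) for Mx1, −0.92 (−2.02 to 0.19) for Irf1, −0.83 (−2.21 to 0.56) for Isg15, −0.51 (−1.46 to 0.43) for Mx2, and −0.04 (−0.77 to 0.69) for Stat2. All 5 intervals include no difference. Those of Mx1, Irf1, Isg15, and Stat2 also include a loss of the whole change seen on SOD, and that of Mx2, whose change on SOD was 1.64, does not. A single gene had an unadjusted p under 0.05 without each of 4 rats in turn, namely Mx1 without FOD-CCI replicate 1 (−1.37) or SOD-CCI replicate 3 (−1.42), Ifit3 without FOD-CCI replicate 2 (−3.68), and Irf1 without FOD-CCI replicate 3 (−1.25).

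**Figure D3:**
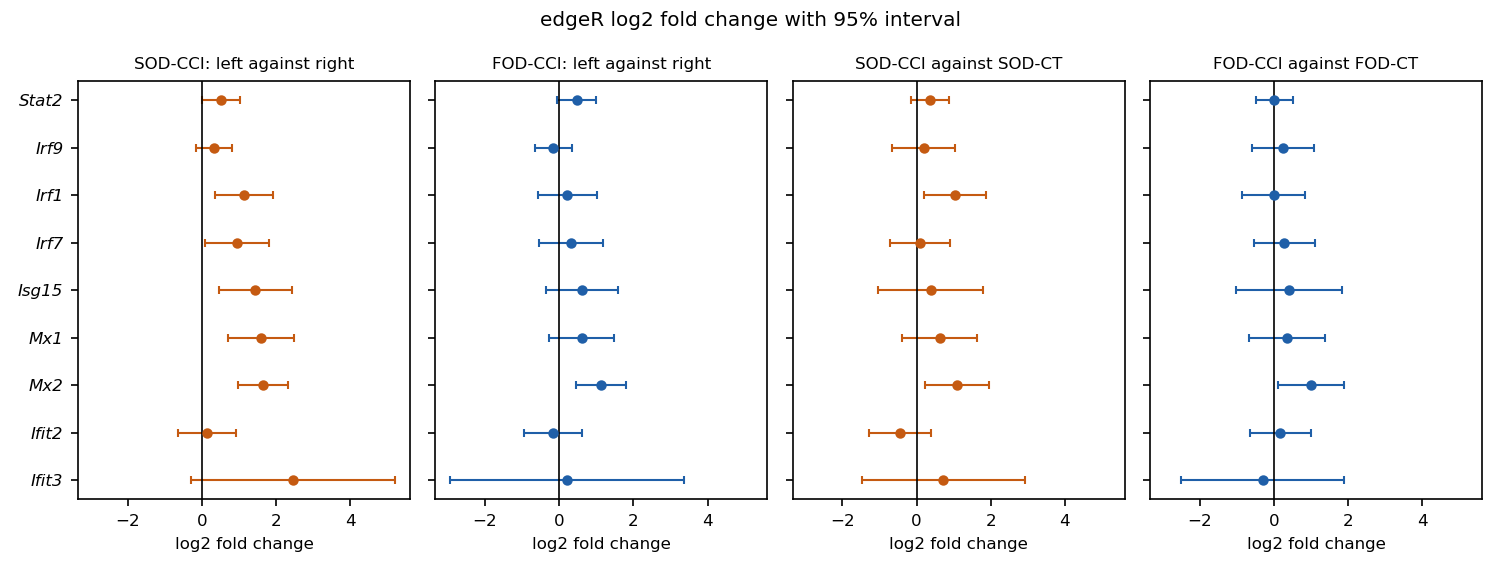
Log2 fold change (horizontal axes, edgeR) of the 9 genes (vertical axis) in 4 comparisons; points are estimates, bars are 95% intervals, and the line marks no change. The interval of Mx2 lies above 0 in all 4 comparisons, and that of Ifit3 is the widest in each.

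Left DRG were then compared with sham DRG, which asks what injury adds to surgery alone. Muscle transcripts went together with this comparison, though unevenly between the SOD-CT libraries. All 4 skeletal muscle markers tested were lower in injured than in sham DRG at an unadjusted p under 0.05 on both diets. Their median log2FC was −10.2 on SOD and −7.28 on FOD. Muscle sums were 119400, 113.4, 5.09, and 4401 CPM in SOD-CT and 8.51 to 50.7 CPM in SOD-CCI. SOD-CT replicate 3 thus lay below every SOD-CCI library. On FOD, the sums were 402.5 to 19140 CPM in FOD-CT and 6.59 to 146.3 CPM in FOD-CCI. The part of muscle transcripts in the differences was not tested. On SOD, 8 of 9 genes were higher in SOD-CCI than in SOD-CT, with a median log2FC of 0.38 against −0.01 over all 14484 genes tested. None was called, and no gene was called in all (0%). Mx2 and Irf1 had an unadjusted p under 0.05, against 5.05% of all genes tested. Irf1 was the 1 gene of the 9 that was higher with no overlap between the groups, against 9.56% of all genes tested. The DESeq2 Wald test called none of the 9 genes in this comparison or in any that follows. The share of all genes that it called there is not given here, so this count has no background to be read against.

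Irf1 was at 7.82, 13.4, 12.3, and 6.82 CPM in SOD-CT and at 21.4, 21.9, and 18.2 CPM in SOD-CCI, so the lowest injured library stood above the highest sham library. The means were 10.1 ± 3.25 CPM (SD, n = 4) and 20.5 ± 2.04 CPM (SD, n = 3), with a log2FC of 1.04 (SE 0.39, edgeR adjusted p = 0.302). Mx2 was at 27.4, 89.8, 50.1, and 50.1 CPM in SOD-CT, and at 54.4 ± 26.0 CPM (SD, n = 4) against 114.3 ± 30.0 CPM (SD, n = 3) in SOD-CCI. The groups overlapped through SOD-CT replicate 2, which was just above the lowest SOD-CCI library. The log2FC was 1.09 (SE 0.40, edgeR adjusted p = 0.299). Of these, only Mx2 was left under 0.05 unadjusted without SOD-CT replicate 4, and only Irf1 without SOD-CCI replicate 1.

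SOD-CT replicate 2 was the highest sham library for Irf9, Irf1, Irf7, Isg15, Mx1, Mx2, and Ifit2 and the second highest for Stat2 and Ifit3. Without it, the median log2FC of the 9 genes was 0.91. Leaving out other libraries in turn gave medians down to 0.198. Without SOD-CT replicate 1, which held the most muscle transcripts, 6 of the 9 genes were higher. Mx2 was then at a log2FC of 0.868 and Irf1 at 0.931. Mx1 was at 15.6, 40.6, 22.3, and 28.2 CPM in SOD-CT, within which the 22.2 CPM of SOD-CCI replicate 3 fell (log2FC 0.62, SE 0.47). Isg15 was at 3.03, 14.4, 4.74, and 4.60 CPM in SOD-CT, and its log2FC was 0.38 (SE 0.66). Ifit3 was at 0 counts in SOD-CT replicate 1, where 3 counts would be 0.202 CPM, and at 4.89, 1.40, and 5.67 CPM in the others (log2FC 0.72, SE 1.02). Stat2 (0.36, SE 0.24), Irf9 (0.19, SE 0.39), Irf7 (0.09, SE 0.38), and Ifit2 (−0.44, SE 0.39) differed by less than 2 SE. Of 9 macrophage markers, 8 were higher in SOD-CCI, with a median log2FC of 0.77 and 0 at an unadjusted p under 0.05.

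On FOD, 7 of 9 genes were higher in FOD-CCI than in FOD-CT, with a median log2FC of 0.25 against 0.01 over all genes, and none was called (0% of all genes). Mx2 alone had an unadjusted p under 0.05, against 3.2% of all genes tested. It was at 35.9, 51.3, and 63.3 CPM in FOD-CT and at 49.7, 89.7, 162.2, and 98.6 CPM in FOD-CCI, with means of 50.1 ± 13.7 CPM (SD, n = 3) and 100.1 ± 46.6 CPM (SD, n = 4). The groups overlapped through FOD-CCI replicate 1. The log2FC was 1.01 (SE 0.41, edgeR adjusted p = 1.00), which is close to the value on SOD. Its unadjusted p was no longer under 0.05 without FOD-CT replicate 1, FOD-CT replicate 2, or FOD-CCI replicate 3, or with library totals in place of TMM.

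None of the 9 genes was higher in FOD-CCI than in FOD-CT with no overlap, against 2.31% of all genes tested. Irf1 was at 12.9, 7.995, and 14.3 CPM in FOD-CT and at 7.25, 10.8, 7.70, and 20.7 CPM in FOD-CCI, with a log2FC of −0.01 (SE 0.39, interval −0.85 to 0.83). Mx1 had a log2FC of 0.35 (SE 0.48), and without FOD-CT replicate 3, the highest sham library at 33.7 CPM, 1.17 with an unadjusted p under 0.05. Isg15 (0.41, SE 0.67), Irf7 (0.28, SE 0.38), Irf9 (0.25, SE 0.39), Ifit2 (0.17, SE 0.39), Stat2 (0.02, SE 0.24), and Ifit3 (−0.31, SE 1.02) differed by less than 1 SE. All 9 macrophage markers were higher in FOD-CCI, with a median log2FC of 1.48 and 4 at an unadjusted p under 0.05. Median log2FC was 1.05 over 4 pan-leukocyte, 3.76 over 4 neutrophil, and 3.33 over 5 red cell markers. In SOD-CCI against SOD-CT, those of neutrophil and red cell markers were −2.78 and −3.11. Single libraries stood out for both lists. Neutrophil sums were 2675 CPM in FOD-CCI replicate 2 (54.7 to 127.6 in the others) and 768.4 CPM in SOD-CT replicate 4 (16.1 to 169.5). Red cell sums were 22260 CPM in FOD-CCI replicate 2 (551.6 to 1727 in the others) and 9544 CPM in SOD-CT replicate 4 (124.6 to 1262). The part of these cells in the values of the 9 genes was not tested.

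Between diets after injury, 7 of 9 genes were lower on FOD, with a median log2FC of −0.19 against 0.04 over all genes, and none was called (0% of all genes). Stat2 was the 1 gene that was lower with no overlap, against 7.46% of all genes tested, at 38.4, 51.8, 62.0, and 51.9 CPM in FOD-CCI and 63.8 to 71.8 CPM in SOD-CCI. Its highest FOD-CCI library lay just under its lowest SOD-CCI library, and its log2FC was −0.42 (SE 0.24, edgeR adjusted p = 0.859). Irf1 had a log2FC of −0.81 (SE 0.39, edgeR adjusted p = 0.859). FOD-CCI replicate 4 reached 20.7 CPM, within the SOD-CCI range, and the other 3 FOD-CCI libraries were at 7.25 to 10.8 CPM. Without replicate 4 its log2FC was −1.26 (edgeR adjusted p = 0.81). Mx1 had a log2FC of −0.84 (SE 0.47), and the other 6 lay between −0.37 (Ifit3) and 0.06 (Ifit2). Mx2, at −0.19 (interval −1.05 to 0.68), did not separate the diets.

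Diet without injury was compared in sham DRG. Of the 9 genes, 7 were lower in FOD-CT than in SOD-CT, with a median log2FC of −0.15 against −0.01 over all genes and none called (0% of all genes). Mx1 (−0.56, SE 0.48) and Ifit2 (−0.55, SE 0.39) were lowest, and Ifit3 (0.65, SE 1.02) and Irf1 (0.23, SE 0.39) were the 2 that were higher. Without FOD-CT replicate 3 the log2FC of Mx1 was −1.38 (edgeR adjusted p = 0.967). Without SOD-CT replicate 2 the median was 0.21. The diet by injury interaction in left DRG, which asks whether the change after injury differs between diets, had a median of −0.08 with 5 of 9 below 0 and none called (0%). It was furthest from 0 for Irf1 at −1.05 (SE 0.55, interval −2.23 to 0.13, edgeR adjusted p = 0.894; −1.49 when FOD-CCI replicate 4 was dropped) and for Ifit3 at −1.02 (SE 1.45), and for Mx2 it was −0.08 (interval −1.31 to 1.14).

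Contralateral DRG were compared with sham DRG, with the side going together with the comparison, since only right DRG of CCI rats and left DRG of sham rats were compared. All 8 genes tested were lower in right DRG of SOD-CCI rats than in SOD-CT, with a median log2FC of −0.61 against −0.02 over all 14007 genes tested. Ifit3 did not pass the filter on low counts. None was called (0% of all genes). Irf7 was the 1 gene at an unadjusted p under 0.05, against 5.98% of all genes tested. It was at 11.3, 32.4, 14.8, and 18.3 CPM in SOD-CT and at 9.46, 10.2, and 9.64 CPM in right DRG, where it was lower with no overlap, against 3.76% of all genes tested. Its log2FC was −0.99 (SE 0.37, edgeR adjusted p = 0.700).

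The right DRG of SOD-CCI rats were close to each other for Irf7, at 9.77 ± 0.39 CPM (SD, n = 3), and for Irf1, at 9.45 ± 0.59 CPM (SD, n = 3). Isg15 (−1.18, SE 0.61), Mx1 (−1.03, SE 0.56), Ifit2 (−0.66, SE 0.42), and Mx2 (−0.57, SE 0.34) were further from 0 than the other 3 but had an unadjusted p above 0.05, and Stat2 (−0.16), Irf9 (−0.14), and Irf1 (−0.11) were within 1 SE of 0. Without SOD-CT replicate 1, 4 genes had an unadjusted p under 0.05 and were lower (Irf7, Ifit3, Mx2, and Isg15), and without SOD-CT replicate 2 there were 0. Without SOD-CT replicate 1, FOD-CT replicate 1, and the right DRG of FOD-CCI replicate 1 together there were 5. Other libraries kept in that fit still held muscle transcripts, up to 19140 CPM in FOD-CT replicate 2. Macrophage markers summed to 29.9 to 77.7 CPM in these right DRG and to 55.5 to 176.1 CPM in SOD-CT, and their part in this difference was not tested. This comparison shares its right DRG with the left-to-right comparison on SOD and its sham DRG with the comparison of SOD-CCI and SOD-CT.

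On FOD, right DRG against sham gave 3 of 8 genes higher and a median log2FC of −0.18, with none called (0% of all genes), no unadjusted p under 0.05, and an edgeR adjusted p of 1.00 for each. Irf1 (−0.56, SE 0.44) and Stat2 (−0.44, SE 0.30) were lowest. Between the right DRG of the diets, 6 of 8 were higher on FOD, with a median of 0.21 and none called (0% of all genes). Isg15 was at 9.61, 4.19, and 5.03 CPM on FOD and at 4.75, 2.16, and 2.07 CPM on SOD (log2FC 1.11, SE 0.64, edgeR adjusted p = 0.712). Irf7 was at 15.1, 10.9, and 20.7 CPM on FOD and at 9.46, 10.2, and 9.64 CPM on SOD (log2FC 0.70, SE 0.39, edgeR adjusted p = 0.704).

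The rest of the pathway was described by 7 lists with 98 symbols, which 97 rows of the count table matched. The interferons themselves were at or near 0. Ifnb1, Ifng, Ifna4, and Ifnk had 0 counts in all 20 libraries, which allows up to 3 counts, or 0.133 CPM in the smallest library. Ifna5 had up to 22 counts and was at 0 in 18 libraries, Ifne had up to 29 counts and was at 0 in 15, and Il27, a cytokine of the Il12 family, had up to 22 counts and was at 0 in 14. None of the ligands passed the filter. Poly-A selected bulk RNA at this depth does not show whether interferon was made elsewhere or at another time.

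In left against right DRG of SOD-CCI rats, 70 of 77 pathway genes tested were higher, with a median log2FC of 0.72. None was called, and 27 were higher at an unadjusted p under 0.05, to be read against the same 5.34%. On FOD, 53 of 77 were higher, with a median of 0.20 and 7 higher at that level, against the same 4.3%. Of the difference between diets, 61 of 77 values were below 0, with a median of −0.50 and 6 lower at an unadjusted p under 0.05, against the same 2.11%. In SOD-CCI against SOD-CT, 51 of 76 were higher (median 0.31). Of these 76, 7 were higher and 1 lower at that level, against 5.05% of all genes higher. In FOD-CCI against FOD-CT, 60 of 76 were higher (median 0.36), with 8 higher and 0 lower at that level, against 3.2% of all genes higher. The plot of pathway lists shows the side comparison on both diets.

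**Figure D4:**
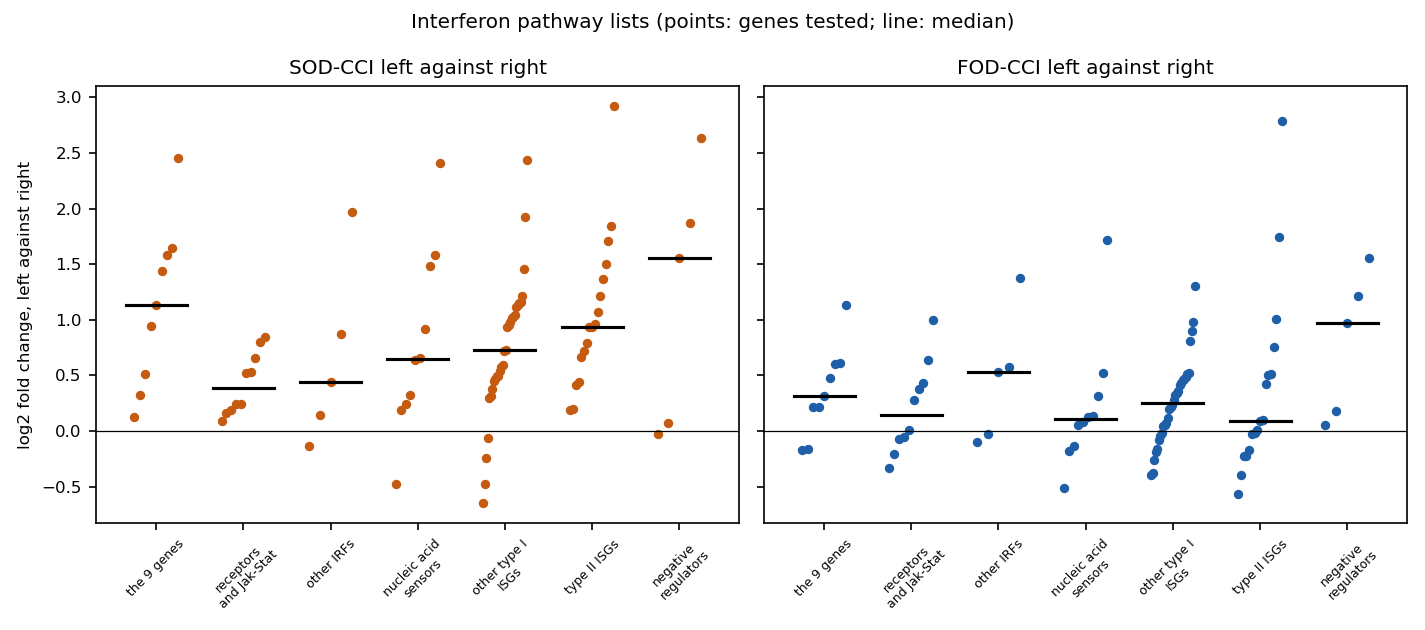
Log2 fold change of left against right DRG (vertical axis, edgeR) for the 9 genes and 6 pathway lists (horizontal axis) in SOD-CCI and FOD-CCI rats; points are genes tested and lines are medians. The median of the 9 genes is 1.13 on SOD and 0.32 on FOD, and type II interferon-stimulated genes have medians of 0.94 and 0.09.

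Of the receptors and Jak-Stat genes, 10 of 10 tested were higher on the injured side on SOD (median 0.38, 4 at an unadjusted p under 0.05) and 6 of 10 on FOD (median 0.14, 2). On SOD the kinase Jak2 (log2FC 0.85, SE 0.26), the interferon gamma receptor chain Ifngr2 (0.66, SE 0.23), and Stat3 (0.53, SE 0.23) had the smallest p values. The 2 genes on FOD were Stat3 (0.64) and, named after its values were seen, Tyk2 (1.00), and both values were above those on SOD (0.53 and 0.80). Against SOD-CT the smallest p values were those of Stat3 (0.90, SE 0.30), Jak1 (0.75, SE 0.31), and Ifngr2 (0.61, SE 0.26). Among other interferon regulatory factors, 4 of 5 were higher on the injured side on SOD (median 0.44, 1 at an unadjusted p under 0.05) and 3 of 5 on FOD (median 0.53, 0). On SOD the smallest p values were those of Irf8, a myeloid factor (1.97, SE 0.79), Irf5 (0.87, SE 0.47), and Irf3 (0.44, SE 0.39). Against SOD-CT, Irf8 was at 0.78 (SE 0.56) and Irf5 at 0.76 (SE 0.57).

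Of nucleic acid sensors and their adaptors, 9 of 10 were higher on the injured side on SOD (median 0.65, 2 at an unadjusted p under 0.05) and 7 of 10 on FOD (median 0.11, 0). The RNA sensors Tlr7 (2.41, SE 0.94) and Ifih1 (0.92, SE 0.35) had the smallest p values on SOD, followed by the kinase Tbk1, which was lower (−0.48, SE 0.22). Against SOD-CT, 5 of 10 were higher, with Tbk1 at −0.40 (SE 0.24), Trim25 at 0.56 (SE 0.53), and Sting1 at 0.54 (SE 0.69).

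Of the other type I interferon-stimulated genes, 26 of 30 were higher on the injured side on SOD (median 0.73, 10 at an unadjusted p under 0.05) and 22 of 30 on FOD (median 0.25, 2). Herc6, a ligase, had a log2FC of 2.44 (SE 0.45, edgeR adjusted p = 0.151), Ifitm3, which hinders virus entry, 1.16 (SE 0.36), and Dtx3l, 1.04 (SE 0.27). Against SOD-CT, 16 of 29 were higher (median 0.19), with Dtx3l at 1.10 (SE 0.40), Herc6 at 0.95 (SE 0.45), and Ifi27 at −0.61 (SE 0.27). In right DRG of SOD-CCI rats against SOD-CT, 23 of 28 were lower (median −0.48, 5 at an unadjusted p under 0.05).

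Of the type II interferon-stimulated genes, 17 of 17 were higher on the injured side on SOD (median 0.94, 7 at an unadjusted p under 0.05) and 10 of 17 on FOD (median 0.09, 2). The GTPases Ifi47 (1.84, SE 0.40, edgeR adjusted p = 0.192) and Gbp2 (1.21, SE 0.33) and the peptide transporter Tap1 (0.94, SE 0.27) had the smallest p values. Against SOD-CT, Gbp2 was at 1.34 (SE 0.38), Gbp5 at 1.02 (SE 0.50), and Ifi47 at 1.58 (SE 0.86). Of the negative regulators, 4 of 5 were higher on the injured side on SOD (median 1.55, 3 at an unadjusted p under 0.05) and 5 of 5 on FOD (median 0.97, 1). Socs3, an inhibitor of Jak signalling that is also induced by other cytokines, had a log2FC of 2.63 (SE 0.47, edgeR adjusted p = 0.134), followed by Ptpn6 (1.55, SE 0.54) and Usp18 (1.87, SE 0.79). Against SOD-CT, Socs3 was at 2.44 (SE 0.61, edgeR adjusted p = 0.266), Usp15 at −0.38 (SE 0.34), and Ptpn6 at 0.33 (SE 0.56).

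Across the 20 libraries, the Spearman correlation of log2 CPM between 2 of the 9 genes ran from −0.10 to 0.80 over 36 pairs, with a median of 0.36 and 34 pairs above 0. The 10 genes whose log2 CPM was most like the mean standardised profile of the 9, out of 14426 ranked, were Xdh (rho 0.826), Herc6 (0.820), Myo1f (0.802), 1 row without a gene name (0.795), Igtp (0.794), Zfp217 (0.786), Hcls1 (0.774), Kif2c (0.768), Oasl2 (0.764), and Ifitm3 (0.761). Herc6, Igtp, Oasl2, and Ifitm3 are in the pathway lists. Xdh encodes xanthine dehydrogenase, and Myo1f and Hcls1 are expressed mainly in blood cells. The libraries share depth, tissue makeup, and for 12 of them a rat, so these values describe likeness in this set only.

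The mean standardised profile was highest in SOD-CCI replicate 1 (1.25), SOD-CT replicate 2 (1.23), and SOD-CCI replicate 2 (0.93), and lowest in SOD-CT replicate 1 (−1.24), with the 3 right DRG of SOD-CCI rats next (−0.56 to −0.75). The right DRG of FOD-CCI rats lay between −0.36 and −0.42, and FOD-CCI left DRG between −0.18 and 0.52. SOD-CT thus held both the lowest of all 20 libraries and the second highest.

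**Figure D5:**
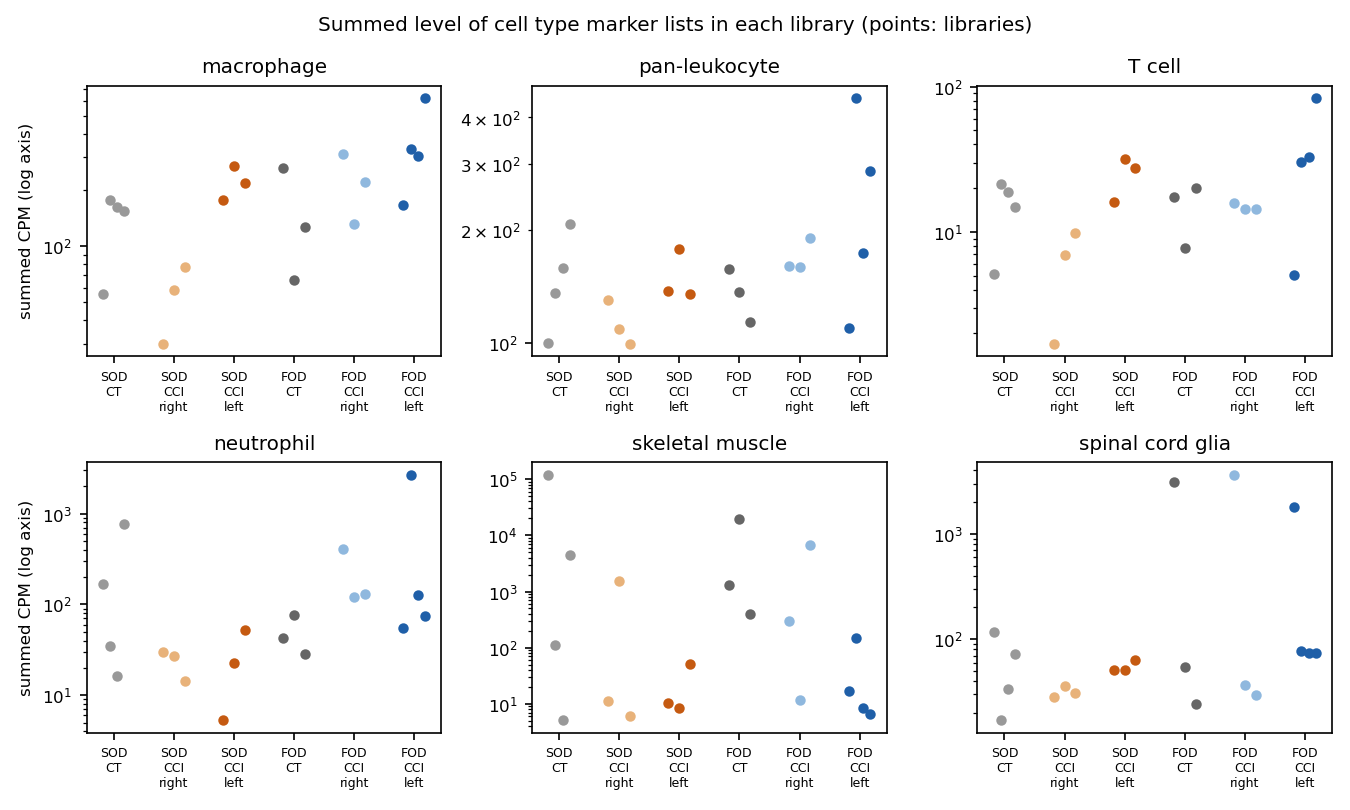
Summed TMM-scaled CPM of 6 marker lists (vertical axes, log scale) in the 20 libraries by group (horizontal axes); points are libraries. Macrophage sums are 29.9 to 77.7 CPM in right DRG and 176.2 to 268.3 CPM in left DRG of SOD-CCI rats, and spinal cord glia sums are 1812 to 3635 CPM in 3 libraries and at most 116 CPM in the others.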

How the data were processed

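The authors prepared poly-A selected libraries. Per the labels, reads were trimmed with fastp, aligned with HISAT2, and assigned to genes with featureCounts 1.5.0-p3. The deposited counts are raw whole numbers per gene and library. Deposited FPKM values, which the authors scaled by gene length and depth, served only to order levels between genes. Neither the genome build nor the strand and multiple-alignment settings are given in the sources used here, so overlapping antisense genes and near-identical copies may share reads.

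Counts were fitted with edgeR 4.0.16 (R 4.3.3), TMM factors, and two-sided quasi-likelihood tests in 3 models, on 14 left libraries, on 12 libraries of 6 rats with the rat as a block, and on 13 sham and contralateral libraries. A gene was kept when 90% or more of a model's libraries had 10 or more counts, and p values were adjusted over all genes kept. The filter and the call thresholds follow the study, whose own tool was DESeq2. Left and right DRG of a rat deviated together from their group means (r from 0.113 to 0.43 over 6 rats). Libraries of different rats could do so as well, with r of 0.57 between right FOD-CCI replicate 1 and FOD-CT replicate 1. These values therefore do not show an effect of the rat, and the pairing rests on the rat named for each library. Medians over the genes are descriptions and carry no p value. The scripts were tested on simulated data with less spread than these data, which checks the code and not the power of the tests here. Alternatives were DESeq2 1.42.0, RLE factors, library totals, no filter, the replicate block, only the 2 groups compared, and leaving out libraries. Intervals and floors cover the error of the fit or of counting only.

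The 9 genes and all lists were chosen with earlier results of these data known. Of the pathway lists the text names the ligands, any called gene, and up to 3 genes per list with the smallest unadjusted p in SOD-CCI against SOD-CT and in left against right DRG of SOD-CCI rats. A gene that this rule would name is not reported here.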

Additional observations from a re-analysis of the deposited data

Results flagged for a closer look

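Among the 18 sets of 4 libraries (the 9 genes in SOD-CT and in FOD-CCI), 2 had 1 library far from the other 3 by Dixon's criterion, which chance gives in about 1 of 20 sets. Isg15 in SOD-CT was at 14.4 CPM in replicate 2 and at 3.03 to 4.74 CPM in the other 3 libraries, and replicate 2 was also the highest SOD-CT library for 6 more of the genes. Ifit3 in FOD-CCI was at 9.89 CPM in replicate 2 and at 1.34 to 1.97 CPM in the other 3. The cause was not tested for either.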

How the results depend on the processing

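None of the 9 genes was called in the 3 models as reported. In left against right DRG on SOD, 3 were called with DESeq2, 2 without the filter, and 3 when FOD-CCI rat 1 was dropped, and on FOD 1 with DESeq2 and 1 when that rat was dropped. These settings called 3.24%, 0.801%, and 3.14% of all genes on SOD, and 1.81% and 0.914% on FOD. Leaving out rats gave 0 to 3 calls on SOD and 0 to 1 on FOD. The median log2FC in SOD-CCI against SOD-CT ran from 0.198 to 0.91 when libraries were left out, the highest without SOD-CT replicate 2. The cause was not tested. A further setting left out replicate 1 of SOD-CT, FOD-CT, and FOD-CCI and the right DRG of that FOD-CCI rat, where a model held them. Other libraries with muscle transcripts were kept. In that setting, the log2FC changed sign in SOD-CCI against SOD-CT of Irf7 (−0.1) and Irf9 (−0.106), in FOD-CCI against FOD-CT of Irf1 (0.228), Stat2 (−0.0347), and Ifit2 (−0.0989), in FOD-CCI against SOD-CCI of Mx2 (0.0409), Ifit2 (−0.0402), and Irf9 (0.00598), in the diet by injury interaction of Mx2 (0.175), in right FOD-CCI against FOD-CT of Ifit2 (−0.278) and Isg15 (−0.145), in right FOD-CCI against right SOD-CCI of Ifit2 (−0.0318). With the replicate block by number, the log2FC changed sign in SOD-CCI against SOD-CT of Isg15 (−0.0478), in FOD-CCI against FOD-CT of Ifit2 (−0.000125), in FOD-CCI against SOD-CCI of Irf7 (−0.0142) and Isg15 (0.0885), in FOD-CT against SOD-CT of Irf9 (0.0248), in the diet by injury interaction of Irf9 (−0.362), in right SOD-CCI against SOD-CT of Irf9 (0.0807), in right FOD-CCI against right SOD-CCI of Mx1 (−0.056). With library totals, the log2FC changed sign in FOD-CCI against FOD-CT of Stat2 (−0.0214), in FOD-CCI against SOD-CCI of Irf7 (−0.0381), in the diet by injury interaction of Isg15 (−0.0781) and Irf9 (−0.0506). Without the filter, the log2FC changed sign in FOD-CCI against SOD-CCI of Irf7 (−0.0026), in the diet difference of left against right of Stat2 (0.0314). Same-numbered libraries of different rats had deviations that correlated at 0.429, 0.237, and 0.191 between FOD-CCI and FOD-CT, but at −0.149, −0.269, and 0.229 between FOD-CT and SOD-CT, and the block changed no call. Leaving out the rat block in the left to right comparison gave Mx2 a log2FC of 1.65 on SOD and no call. Leaving out libraries in turn changed the sign of these log2FC, with ranges in SOD-CCI against SOD-CT from −0.292 to 0.474 for Irf7, from −0.105 to 0.489 for Irf9, and from −0.244 to 1.09 for Isg15. Those were in FOD-CCI against FOD-CT from −0.45 to 0.159 for Irf1 and from −0.14 to 0.165 for Stat2. Those were in FOD-CCI against SOD-CCI from −0.526 to 0.0356 for Mx2, from −0.52 to 0.512 for Isg15, from −1.47 to 0.212 for Ifit3, from −0.293 to 0.396 for Irf7, from −0.207 to 0.276 for Ifit2, and from −0.295 to 0.00209 for Irf9. Those were in FOD-CT against SOD-CT from −0.321 to 0.262 for Mx2, from −0.223 to 0.0824 for Stat2, from −0.356 to 0.212 for Irf7, from −0.388 to 0.566 for Isg15, and from −0.491 to 0.0916 for Irf9. Those were in the diet by injury interaction from −0.449 to 0.139 for Mx2, from −0.197 to 0.57 for Irf7, from −0.676 to 0.658 for Isg15, from −0.243 to 0.345 for Irf9, and from −0.618 to 0.547 for Mx1. Those were in left against right on SOD from −0.158 to 0.481 for Ifit2. Those were in left against right on FOD from −0.0399 to 0.712 for Irf7, from −1.22 to 1.68 for Ifit3, from −0.117 to 0.659 for Irf1, and from −0.292 to 0.0216 for Irf9. Those were in the diet difference of left against right from −0.318 to 0.216 for Stat2. Those were in right SOD-CCI against SOD-CT from −0.246 to 0.0527 for Irf1 and from −0.424 to 0.144 for Irf9. Those were in right FOD-CCI against FOD-CT from −0.596 to 0.583 for Mx1, from −0.397 to 0.307 for Isg15, from −0.126 to 0.634 for Ifit2, and from −0.376 to 0.0982 for Irf7. Those were in right FOD-CCI against right SOD-CCI from −0.026 to 0.643 for Ifit2, from −0.61 to 0.0517 for Irf1, and from −0.124 to 0.629 for Mx1. Ifit3 was limited by its low counts.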
